A study of Homo sapiens with 10 samples.

Results

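NF-kB is a family of dimeric transcription factors, and the RNA of 36 genes of its pathway was examined here in U266, a human cell line grown from a multiple myeloma, a cancer of plasma cells. The genes were chosen by name, as rows of the deposited count table of 60573 genes, and all 36 were found there. Of these, 23 encode components and regulators of the pathway and 13 are target genes, and 34 had enough counts to be tested. One population carried a guide RNA to the start site of EFNB2, the gene of the membrane ligand ephrin-B2. The other, the control, carried a scrambled guide that has no target. Both expressed dCas9-VPR, a cutting-deficient Cas9 joined to activator domains, which turns up transcription where its guide binds. Both populations were transduced by lentivirus, selected with puromycin and blasticidin and kept in both agents. Each guide had 5 RNA-seq libraries of poly(A) RNA, lettered A to E. Nothing in the labels ties the lettered libraries to separate cultures, so p-values cover only the spread among these libraries, which may be technical. Each group was 1 line with 1 guide, and the labels do not say whether the cells were cloned.

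In resting cells NF-kB dimers are held in the cytoplasm by IkB proteins. In the canonical pathway the IKK complex phosphorylates IkB proteins, which are then degraded, and dimers such as RELA with p50 or REL with p50 enter the nucleus. In the non-canonical pathway the kinase NIK, encoded by MAP3K14, drives the processing of the NFKB2 precursor, and RELB with p52 becomes active, while TRAF2, TRAF3 and the cIAP proteins keep NIK low. NF-kB induces some of its own inhibitors, so that several regulators are also target genes. In multiple myeloma, mutations that activate the pathway are common, and myeloma cells depend in part on it for survival. RNA levels do not show how much of these proteins is in the nucleus, and none of the values below measures NF-kB activity.

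NF-kB proteins bind a 10-base κB consensus in DNA. The windows that follow show where this consensus lies near the annotated start of members that differed between the guides, 3 higher and 3 lower with the EFNB2 guide, by the largest absolute log2 fold change among those with a match. Each is a RefSeq window in GRCh38.p14 of 300 bases, from 250 bases before the start to 50 bases after it, written 5′ to 3′ on the strand of the gene. Capitals mark matches to the κB consensus on either strand, with overlapping matches joined into 1 run. CD83 (chr6:14117522-14117821, plus strand) had 3 such runs, REL (chr2:60881324-60881623, plus strand) had 1 and NFKBIZ (chr3:101827740-101828039, plus strand) had 1. Among the members lower with the EFNB2 guide, TNIP1 (chr5:151080985-151081284, minus strand) had 1 run, LTA (chr6:31572039-31572338, plus strand) had 1 and NFKBIB (chr19:38899719-38900018, plus strand) had 2.
CD83: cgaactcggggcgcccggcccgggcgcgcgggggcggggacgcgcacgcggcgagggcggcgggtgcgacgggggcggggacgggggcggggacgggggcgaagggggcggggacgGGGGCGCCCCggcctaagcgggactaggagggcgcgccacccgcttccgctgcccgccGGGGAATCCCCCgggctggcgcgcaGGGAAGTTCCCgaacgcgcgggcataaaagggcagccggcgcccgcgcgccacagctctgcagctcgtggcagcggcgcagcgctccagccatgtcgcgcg
REL: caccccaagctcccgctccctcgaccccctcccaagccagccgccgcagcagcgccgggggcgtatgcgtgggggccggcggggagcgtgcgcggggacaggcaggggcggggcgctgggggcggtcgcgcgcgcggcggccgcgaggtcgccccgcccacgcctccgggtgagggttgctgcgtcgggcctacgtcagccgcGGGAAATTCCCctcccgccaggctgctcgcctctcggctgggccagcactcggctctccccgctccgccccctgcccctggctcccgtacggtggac
NFKBIZ: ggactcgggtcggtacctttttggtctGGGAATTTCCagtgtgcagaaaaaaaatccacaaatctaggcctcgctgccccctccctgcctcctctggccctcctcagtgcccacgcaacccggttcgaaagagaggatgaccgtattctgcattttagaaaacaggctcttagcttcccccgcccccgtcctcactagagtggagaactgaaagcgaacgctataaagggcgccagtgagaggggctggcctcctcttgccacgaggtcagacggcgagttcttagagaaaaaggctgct
TNIP1: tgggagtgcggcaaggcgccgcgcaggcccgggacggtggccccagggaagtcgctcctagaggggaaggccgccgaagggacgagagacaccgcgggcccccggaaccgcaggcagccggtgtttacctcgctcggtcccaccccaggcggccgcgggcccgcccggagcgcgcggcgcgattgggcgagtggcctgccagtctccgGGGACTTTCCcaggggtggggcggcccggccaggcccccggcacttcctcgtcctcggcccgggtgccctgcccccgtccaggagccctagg
LTA: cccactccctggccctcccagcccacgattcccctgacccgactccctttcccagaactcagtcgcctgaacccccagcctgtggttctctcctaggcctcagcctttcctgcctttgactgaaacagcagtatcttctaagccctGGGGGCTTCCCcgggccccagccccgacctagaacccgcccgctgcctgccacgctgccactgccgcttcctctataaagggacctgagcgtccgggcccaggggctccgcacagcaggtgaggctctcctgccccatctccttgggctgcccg
NFKBIB: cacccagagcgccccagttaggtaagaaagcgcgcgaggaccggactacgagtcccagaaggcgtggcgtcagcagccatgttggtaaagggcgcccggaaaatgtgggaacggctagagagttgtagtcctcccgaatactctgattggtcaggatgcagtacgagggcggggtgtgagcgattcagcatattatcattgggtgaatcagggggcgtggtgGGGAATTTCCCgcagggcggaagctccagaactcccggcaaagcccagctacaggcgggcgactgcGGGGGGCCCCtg
The window of PLEK (chr2:68365032-68365331, plus strand), chosen after its values were seen because its difference was the largest of the members, held no match to the κB consensus.
PLEK: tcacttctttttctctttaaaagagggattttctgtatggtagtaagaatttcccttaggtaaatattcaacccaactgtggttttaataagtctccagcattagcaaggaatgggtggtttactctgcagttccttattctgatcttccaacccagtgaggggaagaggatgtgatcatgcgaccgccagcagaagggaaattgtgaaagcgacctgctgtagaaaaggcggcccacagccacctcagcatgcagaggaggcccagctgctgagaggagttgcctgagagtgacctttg

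A match is a description of the letters and does not show that a factor binds there. Of the 35116 windows in the RefSeq table, 11.3% held a match, and of its 27305 genes 13.3% had one in any window. The table held 30 of the 36 members, and 17 of these (56.7%) had a match. Genes with more windows have more chances of a match in any of them. By window, 23 of the 55 member windows (41.8%) held a match, beside the 11.3% of all windows. The members without an entry were RELB, NFKBIE, IKBKB, CD40, CD69 and IER3. A match was held by 7 of 12 members that were higher with the EFNB2 guide, by 4 of 7 that were lower, by 6 of 10 that did not pass the threshold and not by TNF, which could not be tested. Matches stood in 13 of 20 components and in 4 of 10 targets. REL had its run at positions -47 to -37 from the start, TNIP1 at -42 to -33 and NFKBIB at -28 to -18 and 38 to 47. In the other printed windows NFKBIZ had its run at -223 to -214, LTA at -104 to -94 and CD83 its runs between -134 and -41. CD83, NFKBIZ, TNIP1, LTA and NFKBIB each had 1 other window that is not printed, so these positions refer to 1 of their annotated starts. Whether position goes with the direction of a difference was not tested.

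**Figure D1:**
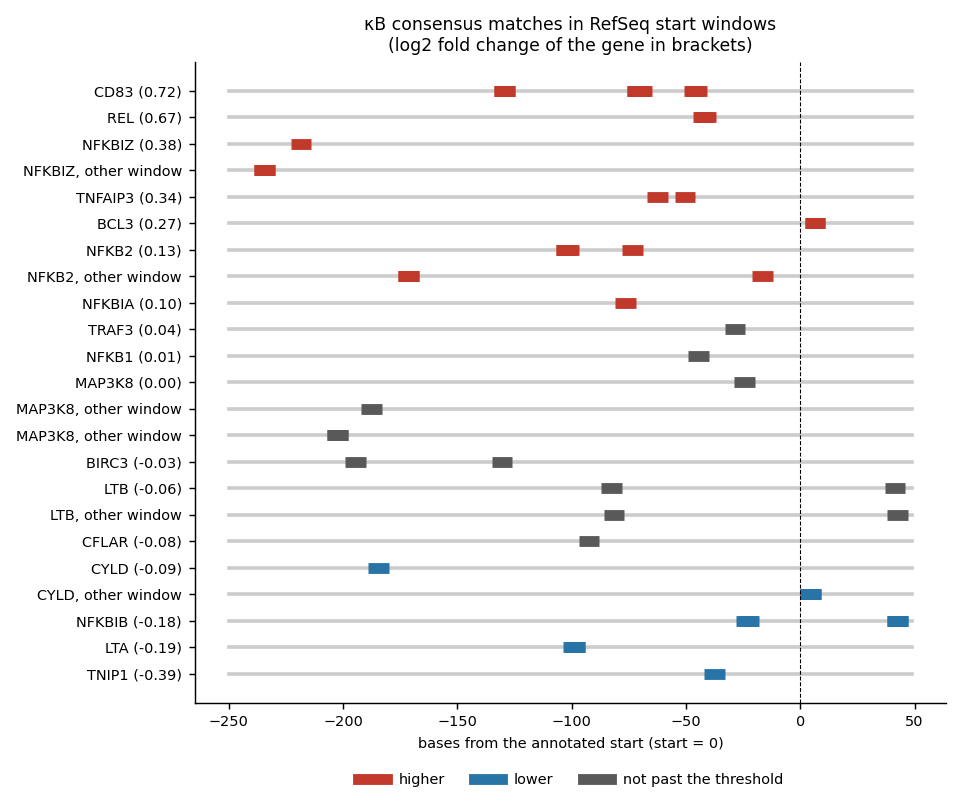
Positions of κB consensus matches in RefSeq start windows of the members that had one, in bases from the annotated start (horizontal axis), with 1 grey line per window and the gene's log2 fold change in brackets. Red marks genes higher and blue marks genes lower with the EFNB2 guide, and dark grey marks genes that did not pass the threshold; matches stood in 7 of 12 higher genes, 4 of 7 lower genes and 6 of 10 genes that did not pass.

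The libraries held between 47267929 and 56513336 counts each. Levels are given as CPM, read counts relative to the TMM-scaled library size, and a difference is a log2 fold change of the EFNB2 guide over the control guide from edgeR's quasi-likelihood test, with its standard error (SE). Values per library run from A to E. EFNB2 itself (GRCh38.p14, as for all gene positions here, chr13:106489745-106535662) had 0.954, 1.12, 1.25, 1.49 and 1.21 CPM with the EFNB2 guide, against 0.17, 0.136, 0.143, 0.11 and 0.0364 CPM with the control guide. The groups did not overlap (log2 fold change 3.32, SE 0.25, adjusted p = 4.69e-08; exact permutation test on CPM, two-sided, p = 0.00794, the smallest that 5 against 5 libraries allow). All 8 plasma cell markers were above 1 CPM with both guides, with a summed level of 3530 to 3760 CPM with the EFNB2 guide, against 4020 to 4650 CPM with the control guide. Of these markers 3 were higher with the EFNB2 guide (CD38, SLAMF7 and XBP1), 3 were lower (SDC1, TNFRSF17 and MZB1) and 2 did not pass. Most of the summed level was SDC1, which averaged 2120 CPM with the EFNB2 guide, against 3010 CPM with the control guide. Of 5 monocyte markers, 0 were above 1 CPM with either guide, and of 5 T cell and 5 B cell markers 1 each was (CD3E and CD79B). The summed monocyte markers lay at 0.328 to 0.439 CPM with the EFNB2 guide, against 0.0729 to 0.367 CPM with the control guide. The T cell markers summed to 3.52 to 4.01 CPM with the EFNB2 guide, against 3.5 to 5.5 CPM with the control guide, and the B cell markers to 4.83 to 5.86 CPM with the EFNB2 guide, against 4.95 to 7.82 CPM with the control guide. LYZ, a defining monocyte transcript, was near 0 with both guides, at 0.0322 CPM with the EFNB2 guide, against 0.0257 CPM with the control guide, and CD14 averaged 0.287 CPM with the EFNB2 guide, against 0.0782 CPM with the control guide. The part of these markers in the results was not tested. In bulk RNA, a higher level in every cell and a larger share of cells with the gene cannot be told apart.

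The A libraries stood apart in both groups. Within the EFNB2 guide, library A was the highest of the 5 in 17 of the 34 tested members and the lowest in 9, and within the control guide library A was the highest in 5 and the lowest in 15. Over all 17833 genes tested, library A was the highest in 29.7% and the lowest in 29.9% with the EFNB2 guide, and the highest in 28.9% and the lowest in 32.1% with the control guide. No 2 libraries of a guide were alike within sampling noise (chi-square over degrees of freedom 1.94 to 22.9 for the pairs), and each library counted as 1 replicate. Of the 21 members that passed the threshold, 18 had the same sign in the A libraries alone as in libraries B to E, and NFKBIZ, CYLD and LTA did not. Values without the A libraries stand beside calls that they moved. What sets the A libraries apart was not tested.

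Of the 34 tested members, 14 were higher and 7 lower with the EFNB2 guide at an adjusted p under 0.05, and 13 did not pass. That is 61.8% of the members, where 45.4% of all 17833 genes tested passed, 22.8% as higher and 22.6% as lower. Calls depend on depth, and most members are well expressed: 19 of the 30 members whose mean log2 CPM was 1 or more passed, against 54.4% of all genes at that level. The higher members made up 41.2% of those tested and the lower ones 20.6%. Libraries of the guides did not overlap in 16 of 34 members (47.1%), beside 30.3% of all genes tested, a share that was not taken at a matched level. The differences were small, with a median absolute log2 fold change of 0.14 over the members and 0.16 over all genes, and a median of 0.05 over the members and 0.01 over all genes. Differences of at least 1.5-fold that passed the threshold were found in 4 members (11.8%), PLEK, CD69, CD83 and REL, all higher with the EFNB2 guide, and in 9.37% of all genes tested. Without both A libraries 25 members passed, 16 as higher and 9 as lower, including all 21 of the above. The lower members numbered 4 without EFNB2 guide library C and 4 without control guide library E. On the deposited signal 13 members were higher and 8 lower, while the split of all genes moved to 3021 higher and 4490 lower, against 4071 and 4027 with TMM scaling of the counts.

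**Figure D2:**
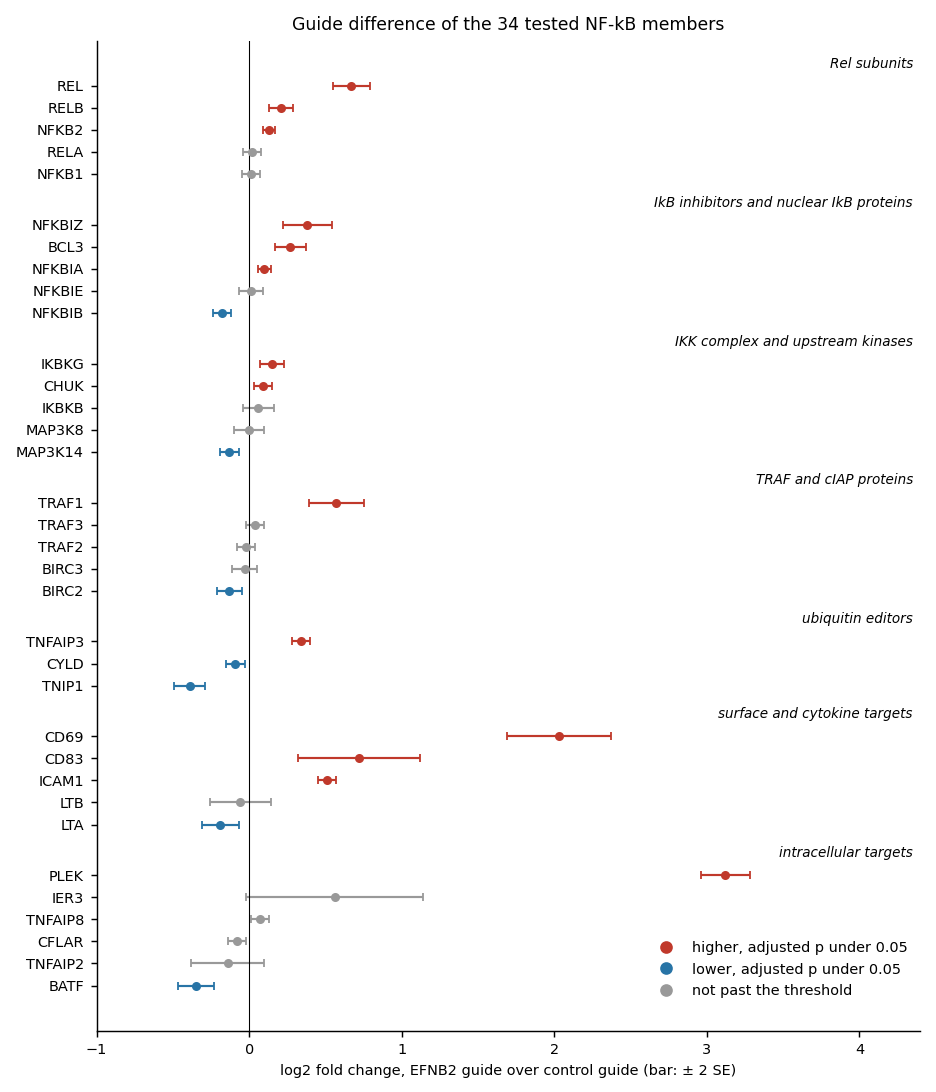
Log2 fold change of the 34 tested members (horizontal axis, EFNB2 guide over control guide), with bars of 2 SE on either side, grouped by role and coloured by direction. The 14 red points lie above 0 and the 7 blue points below it, and PLEK (3.12) and CD69 (2.03) lie far to the right of the rest.

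Of the 5 Rel subunits, which form the DNA-binding dimers, 3 rose with the EFNB2 guide and 0 fell. The 60% that passed stand beside 45.4% of all genes tested and 54.4% of those with a mean log2 CPM of 1 or more. REL encodes c-Rel, a canonical subunit prominent in lymphoid cells. It had 29.2, 32.9, 33.0, 31.3 and 32.4 CPM with the EFNB2 guide, against 17.8, 18.7, 20.0, 22.2 and 21.1 CPM with the control guide. The groups did not overlap, and REL rose 1.59-fold (2 SE on either side, 1.47 to 1.72; log2 fold change 0.67, SE 0.06, adjusted p = 1.24e-07). REL lies at chr2:60881574-60931612. RELB, the partner of p52 in the non-canonical pathway (chr19:45001464-45038192), had 98.3, 88.5, 86.4, 86.7 and 89.1 CPM with the EFNB2 guide, against 76.3, 72.3, 81.2, 80.1 and 79.4 CPM with the control guide. Its groups did not overlap either, although library A was far above the other libraries of the EFNB2 guide. RELB had a log2 fold change of 0.21 (SE 0.04, adjusted p = 0.000531), and 0.16 without both A libraries (adjusted p = 6.27e-05).

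NFKB2 encodes p100, the precursor of p52 (chr10:102394110-102402529). It had 509, 494, 474, 492 and 490 CPM with the EFNB2 guide, against 450, 448, 453, 448 and 452 CPM with the control guide. Every library with the EFNB2 guide was above every control, by a small amount (log2 fold change 0.13, SE 0.02, adjusted p = 0.00028). The other 2 subunits did not pass. NFKB1, the source of p50, averaged 60.5 ± 1.86 CPM with the EFNB2 guide, against a control guide average of 60.2 ± 1.52 CPM (SD, n = 5 each), with a fold of 1.01 (2 SE on either side, 0.966 to 1.05; adjusted p = 0.85). RELA, the p65 subunit of the canonical dimer, averaged 155 ± 4.96 CPM with the EFNB2 guide, against a control guide average of 153 ± 1.87 CPM (SD, n = 5 each), and its log2 fold change was 0.02 (SE 0.03, adjusted p = 0.517). By level per length of exons NFKB2 was the highest subunit and REL the lowest with both guides, at 110 and 2.41 CPM per kb with the EFNB2 guide and 100 and 1.52 CPM per kb with the control guide. REL shares 5702 of its 13170 exon bases on the same strand with AC010733.2, which had 0 counts. How reads there were counted is not known, so the level of REL per kb is uncertain and may be understated. RELB and RELA lay close together between NFKB2 and REL, at 29.6 and 28.4 CPM per kb with the EFNB2 guide and 25.7 and 28.0 CPM per kb with the control guide.

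Of the 5 IkB genes, 3 rose with the EFNB2 guide, 1 fell and 1 did not pass. The 80% called stand beside 45.4% of all genes tested and 54.4% of those with a mean log2 CPM of 1 or more. Both members of the nuclear group, NFKBIZ and BCL3, whose proteins act with p50 or p52 in the nucleus, were higher with the EFNB2 guide, as was NFKBIA, while NFKBIB was lower. NFKBIZ encodes IkB-zeta, a cofactor for a subset of NF-kB targets (chr3:101827990-101861022). It had 23.9, 30.8, 30.1, 27.0 and 31.2 CPM with the EFNB2 guide, against 26.5, 22.1, 20.1, 19.7 and 21.1 CPM with the control guide. Library A crossed the others, being the lowest with the EFNB2 guide and the highest with the control guide, so that the groups overlapped. The log2 fold change of NFKBIZ was 0.38 (SE 0.08, adjusted p = 0.00141) over all libraries, and 0.52 without both A libraries (adjusted p = 2.06e-09), while between the A libraries alone the log2 difference was -0.15. BCL3 had 15.9, 19.0, 17.3, 18.2 and 17.9 CPM with the EFNB2 guide, against 15.5, 13.6, 14.2, 15 and 14.7 CPM with the control guide. Its groups did not overlap, by a narrow margin between the A libraries (log2 fold change 0.27, SE 0.05, adjusted p = 0.000449). The log2 difference of BCL3 was 0.04 between the A libraries and 0.33 over libraries B to E.

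NFKBIB encodes the inhibitor IkB-beta, which holds dimers in the cytoplasm. It had 51.0, 51.9, 50.3, 49.6 and 50.3 CPM with the EFNB2 guide, against 54.8, 57.4, 59.0, 58.7 and 56.7 CPM with the control guide. All libraries with the EFNB2 guide were lower than all controls (log2 fold change -0.18, SE 0.03, adjusted p = 8.58e-05). NFKBIA encodes IkB-alpha, the inhibitor that NF-kB itself re-induces, and it averaged 127 ± 1.32 CPM with the EFNB2 guide, against a control guide average of 119 ± 2.30 CPM (SD, n = 5 each), with no overlap and a log2 fold change of 0.10 (SE 0.02, adjusted p = 0.00246). NFKBIE, the gene of IkB-epsilon, averaged 49 ± 2.67 CPM with the EFNB2 guide, against a control guide average of 48.8 ± 1.68 CPM and did not pass (SD, n = 5 each, adjusted p = 0.889). Its log2 fold change was 0.01, and -0.04 without both A libraries.

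Among the 5 kinase genes, 2 were higher, 1 was lower and 2 did not pass. The 60% called stand beside 45.4% of all genes tested and 54.4% of those with a mean log2 CPM of 1 or more. The differences were small. IKBKG encodes NEMO, the scaffold that the kinase subunits need in the canonical pathway. It had 27.4, 27.3, 30.2, 28.4 and 29.9 CPM with the EFNB2 guide, against 26.1, 24.9, 25.9, 25.4 and 26.8 CPM with the control guide. The groups did not overlap (log2 fold change 0.15, SE 0.04, adjusted p = 0.00462). The value of IKBKG is uncertain, since a near-identical pseudogene exists that may share its reads. CHUK, the gene of IKK-alpha, the kinase subunit that the non-canonical pathway uses, had 59.8, 61.1, 64.4, 64.6 and 65.4 CPM with the EFNB2 guide, against 59.6, 58.7, 57.9, 59.4 and 60.1 CPM with the control guide. Its groups overlapped through library A with the EFNB2 guide (log2 fold change 0.09, SE 0.03, adjusted p = 0.0185), and its call was lost on the deposited normalized values (adjusted p = 0.058).

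MAP3K14, the gene of NIK at the head of the non-canonical pathway, was lower with the EFNB2 guide. It had 74.7, 71.2, 68.8, 71.7 and 72.1 CPM with the EFNB2 guide, against 75.0, 79.4, 77.9, 81.2 and 80.0 CPM with the control guide. The A libraries of the guides nearly met, and the other libraries were well apart (log2 fold change -0.13, SE 0.03, adjusted p = 0.00142). MAP3K14 shares 713 bases of exons with its antisense gene, and the strand setting of the counting is not given in the sources used here. IKBKB, the gene of IKK-beta, the kinase of the canonical pathway, averaged 35.3 ± 1.35 CPM with the EFNB2 guide, against a control guide average of 33.8 ± 2.51 CPM (SD, n = 5 each, adjusted p = 0.301), and passed without both A libraries, with a log2 fold change of 0.13 (adjusted p = 0.00134), and without control guide library A alone (adjusted p = 0.0213). MAP3K8, a kinase bound by the NFKB1 precursor, averaged 18.5 ± 0.946 CPM with the EFNB2 guide, against a control guide average of 18.5 ± 0.985 CPM (SD, n = 5 each, adjusted p = 0.994).

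TRAF and cIAP proteins couple receptors of the TNF family to these kinases. TRAF1, which is itself a target of NF-kB, rose with the EFNB2 guide, BIRC2 fell, and TRAF2, TRAF3 and BIRC3 did not pass. Of these genes 40% were called, beside 45.4% of all genes tested and 54.4% of those with a mean log2 CPM of 1 or more. TRAF1 had 9.47, 8.96, 6.87, 7.90 and 9.05 CPM with the EFNB2 guide, against 6.4, 5.25, 5.69, 6 and 5.25 CPM with the control guide. The groups did not overlap, and TRAF1 rose 1.48-fold (2 SE on either side, 1.31 to 1.67; log2 fold change 0.57, SE 0.09, adjusted p = 8.18e-05). BIRC2, the gene of cIAP1, had 22.8, 21.2, 20.8, 21.5 and 23.1 CPM with the EFNB2 guide, against 24.3, 23.2, 22.6, 24.7 and 25.0 CPM with the control guide. Its groups overlapped and its adjusted p was 0.0191 (log2 fold change -0.13, SE 0.04), a call that was lost when EFNB2 guide library B or C or control guide library D or E was left out (adjusted p 0.0538 to 0.0653).

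BIRC3, the gene of cIAP2 and a target of NF-kB, was among the most highly expressed members and depended on library A. It had 585, 518, 513, 523 and 523 CPM with the EFNB2 guide, against 489, 569, 551, 563 and 552 CPM with the control guide. Library A was the highest with the EFNB2 guide and the lowest with the control guide, and the 4 other libraries of each guide lay in the opposite order. Over all libraries BIRC3 did not pass (log2 fold change -0.03, SE 0.04, adjusted p = 0.559), and without both A libraries it passed as lower (log2 fold change -0.11, adjusted p = 3.57e-05). TRAF2 and TRAF3, adaptors that hold NIK low, had log2 fold changes of -0.02 and 0.04 (adjusted p = 0.585 and 0.384), and of -0.06 and -0.01 without both A libraries.

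All 3 ubiquitin editors, which trim or read the ubiquitin chains of the pathway, passed, 1 as higher and 2 as lower. Of all genes tested 45.4% passed, and of those with a mean log2 CPM of 1 or more 54.4% passed. TNFAIP3 encodes A20, an inhibitor that NF-kB induces. It had 598, 551, 550, 549 and 557 CPM with the EFNB2 guide, against 452, 452, 432, 439 and 448 CPM with the control guide. Every library with the EFNB2 guide was far above every control (1.26-fold, 2 SE on either side 1.22 to 1.31, adjusted p = 9.77e-08). TNIP1 encodes ABIN1, a partner of A20 that binds ubiquitin. It had 318, 286, 279, 283 and 278 CPM with the EFNB2 guide, against 334, 390, 391, 391 and 391 CPM with the control guide. The groups did not overlap, yet the A libraries lay between the others in both. TNIP1 fell to 0.761 of the control level (2 SE on either side, 0.714 to 0.811; log2 fold change -0.39, SE 0.05, adjusted p = 5e-06). The log2 difference was -0.07 between the A libraries and -0.47 over libraries B to E. The RNA of A20 and that of its partner differed in opposite directions. CYLD, a deubiquitinase and tumour suppressor, had 136, 139, 136, 139 and 138 CPM with the EFNB2 guide, against 136, 146, 149, 152 and 148 CPM with the control guide, with an overlap at library A (log2 fold change -0.09, SE 0.03, adjusted p = 0.0237). Its call was lost in 5 of the 10 fits that left out 1 library, without EFNB2 guide library C or E or control guide library C, D or E (adjusted p up to 0.0707).

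**Figure D3:**
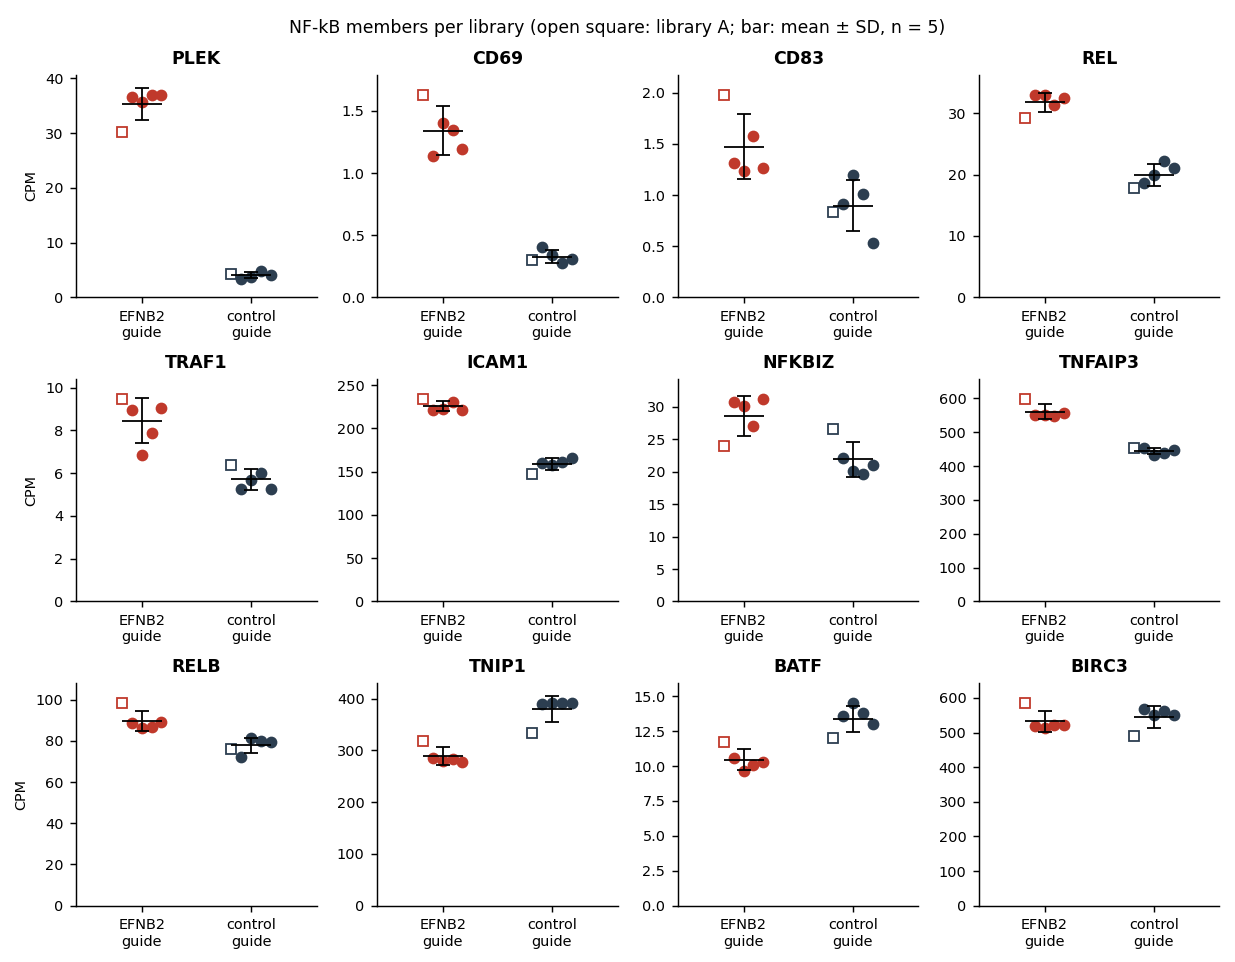
CPM of 12 members in each library (vertical axes from 0), EFNB2 guide on the left and control guide on the right of each panel, with the mean and SD of 5 libraries. Library A is an open square: it lies on the side of its own group in PLEK, CD69 and REL, and between or beyond the groups in NFKBIZ, TNIP1 and BIRC3.

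Of the 7 surface and cytokine targets, 5 could be tested, and 3 rose while 1 fell (80% called, beside 45.4% of all genes tested). CD69, an early activation antigen of lymphocytes (chr12:9752486-9760901), had 1.63, 1.14, 1.40, 1.35 and 1.19 CPM with the EFNB2 guide, against 0.302, 0.407, 0.34, 0.275 and 0.31 CPM with the control guide. The lowest library with the EFNB2 guide was above the highest control, at a low level in both. CD69 rose 4.09-fold (2 SE on either side, 3.25 to 5.15; log2 fold change 2.03, SE 0.17, adjusted p = 1.03e-07), on sums of 341 counts with the EFNB2 guide and 88 with the control guide. CD83, a membrane protein of activated lymphocytes and dendritic cells, had 1.98, 1.31, 1.23, 1.58 and 1.26 CPM with the EFNB2 guide, against 0.831, 0.911, 1.2, 1.01 and 0.528 CPM with the control guide. The groups were separated by a narrow gap, and library A was the highest with the EFNB2 guide. CD83 rose 1.65-fold (2 SE on either side, 1.26 to 2.16, adjusted p = 0.00713), and its log2 fold change was 0.72 over all libraries and 0.56 without both A libraries (adjusted p = 0.0173). On the log2(value + 1) scale of the deposited signal, which understates changes of low genes, the log2 differences were 0.81 for CD69 and 0.37 for CD83.

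ICAM1 encodes an adhesion ligand for leukocyte integrins and had the highest level per length of exons among the surface and cytokine targets. It had 234, 221, 222, 230 and 221 CPM with the EFNB2 guide, against 147, 160, 158, 161 and 166 CPM with the control guide. All libraries with the EFNB2 guide were well above all controls (1.43-fold, log2 fold change 0.51, SE 0.03, adjusted p = 3.65e-09). LTA, the cytokine lymphotoxin-alpha, had 23.6, 18.8, 18.9, 19.0 and 19.8 CPM with the EFNB2 guide, against 21.1, 22.3, 23.5, 22.7 and 24.7 CPM with the control guide. Its groups overlapped at library A, and the fall passed with a log2 fold change of -0.19 (SE 0.06, adjusted p = 0.0193). Without both A libraries the log2 fold change of LTA was -0.29 (adjusted p = 2.85e-06), and the call was lost when EFNB2 guide library B, C or D or control guide library E was left out (adjusted p 0.0556 to 0.062). LTB, the membrane partner of LTA, averaged 4.10 ± 0.525 CPM with the EFNB2 guide, against a control guide average of 4.26 ± 0.425 CPM (SD, n = 5 each, adjusted p = 0.671).

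TNF and CD40 were too low to test. TNF, the inflammatory cytokine, had 25 counts in all with the EFNB2 guide and 12 with the control guide, a ratio of 2.22 after scaling to library size (95% exact interval 1.07 to 4.84, counting error only). CD40, a receptor of B cells that signals to NF-kB, had 3 counts with the EFNB2 guide and 0 with the control guide, where a count of 0 in a library allows up to 0.0537 to 0.0627 CPM. No difference in CD40 was detectable at this depth.

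Of the 6 intracellular targets, 1 rose, 1 fell and 4 did not pass (33.3% called, beside 45.4% of all genes tested). PLEK encodes pleckstrin, a substrate of protein kinase C in platelets and leukocytes (chr2:68365282-68397453). It had 30.2, 36.6, 35.7, 36.9 and 37.0 CPM with the EFNB2 guide, against 4.27, 3.43, 3.76, 4.86 and 3.99 CPM with the control guide. The groups were far apart, with library A the lowest with the EFNB2 guide. PLEK rose 8.68-fold (2 SE on either side, 7.77 to 9.69; log2 fold change 3.12, SE 0.08, adjusted p = 1.8e-13). BATF, a transcription factor of the AP-1 family in lymphocytes, had 11.7, 10.6, 9.63, 10.1 and 10.3 CPM with the EFNB2 guide, against 12, 13.6, 14.5, 13.8 and 13.0 CPM with the control guide. The groups did not overlap, and the A libraries were the closest pair. The log2 fold change of BATF was -0.35 (SE 0.06, adjusted p = 0.000252) over all libraries and -0.43 without both A libraries (adjusted p = 2.2e-07).

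The other intracellular targets did not pass. TNFAIP8, a regulator of cell death, averaged 144 ± 3.60 CPM with the EFNB2 guide, against a control guide average of 137 ± 5.01 CPM (SD, n = 5 each), with a log2 fold change of 0.07 (adjusted p = 0.0649). CFLAR, the gene of the caspase-8 inhibitor cFLIP, averaged 248 ± 6.03 CPM with the EFNB2 guide, against a control guide average of 263 ± 14.5 CPM (SD, n = 5 each), with a log2 fold change of -0.08 (adjusted p = 0.0612). Without both A libraries each passed, TNFAIP8 with 0.06 (adjusted p = 0.0157) and CFLAR with -0.11 (adjusted p = 0.000106). TNFAIP8 also passed with library totals alone, with the 1 CPM filter and without EFNB2 guide library A or control guide library B (adjusted p 0.0189 to 0.0318). CFLAR also passed with no filter, on the deposited signal and without control guide library A (adjusted p 0.00025 to 0.0373). TNFAIP2, a gene induced by TNF, had a log2 fold change of -0.14 (SE 0.12, adjusted p = 0.376), and of -0.04 without both A libraries. IER3, an early response gene that affects cell survival, had 114 counts in all with the EFNB2 guide and 82 with the control guide, and a log2 fold change of 0.56 (SE 0.29, adjusted p = 0.129). Without EFNB2 guide library C, its lowest value, IER3 passed (log2 fold change 0.76, adjusted p = 0.0143). IER3 overlaps its antisense gene by 359 bases, so that its reads are uncertain.

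Components and targets were set side by side. Of the 23 components, 10 were higher, 5 were lower and 8 did not pass, with a median log2 fold change of 0.04 (0.00 without both A libraries) and a median absolute value of 0.13. Of the 11 tested targets, 4 were higher, 2 were lower and 5 did not pass, with a median of 0.07 and a median absolute value of 0.35. The targets' median moved with the setting: it was 0.51 with DESeq2 and with no filter, where TNF and CD40 entered, and -0.01 on the deposited signal, where IER3 gave no value. Calls made up 65.2% of the components and 54.5% of the tested targets, beside 45.4% of all genes tested and 54.4% of those with a mean log2 CPM of 1 or more. The lower components numbered 3 without EFNB2 guide library C or control guide library D or E, and the lower targets 1 without EFNB2 guide library B, C or D or control guide library E. The difference between the 2 kinds was not tested. A difference of at least 1.5-fold that passed was found in 1 of 23 components and in 3 of 11 targets, beside 9.37% of all genes tested. The line between the kinds is not sharp, since 12 of the components are regulators that NF-kB also induces. Of these 12, 8 were higher (66.7%), 1 was lower and 3 did not pass (75.0% called, median 0.17). Of the other 11 components 2 were higher (18.2%), 4 were lower (36.4%) and 5 did not pass (median 0.00). Over all genes tested 22.8% were higher and 22.6% lower. With the induced regulators counted as targets, 12 of 23 were higher (52.2%) and 3 were lower (13%), with a median of 0.13. These counts rest on which regulators were taken as induced, a list made with earlier results of these data known. The difference between the groups was not tested. In the separate list of 34 other target genes described below, 8 of 24 tested were higher (33.3%) and 9 were lower (37.5%), with a median of -0.03.

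**Figure D4:**
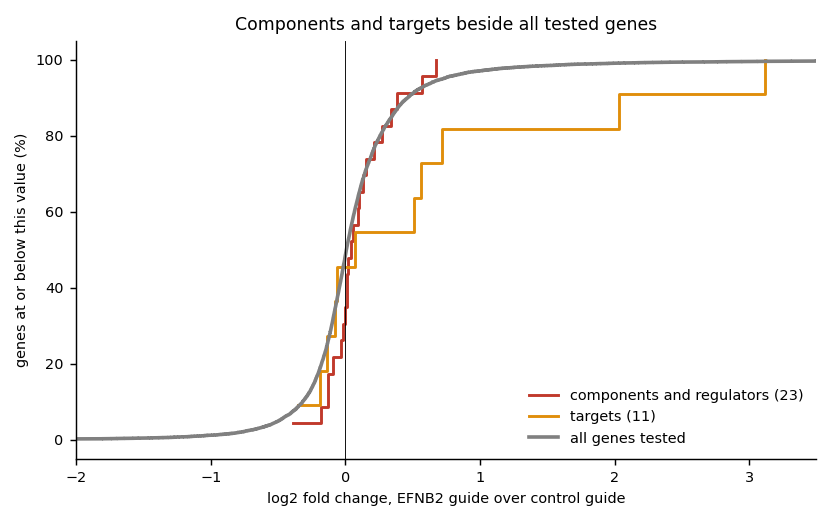
Share of genes (%) at or below each log2 fold change (horizontal axis, EFNB2 guide over control guide) for the 23 components, the 11 tested targets and all genes tested. The components follow all genes closely with a median of 0.04, while the targets extend further to the right through CD83 (0.72), CD69 (2.03) and PLEK (3.12).

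By level per kb of exons, TNFAIP3 and NFKB2 led, at 111 and 110 CPM per kb with the EFNB2 guide and 88.0 and 100 CPM per kb with the control guide, followed by BIRC3. ICAM1 ranked 4 of the members with the EFNB2 guide, at 60.9 CPM per kb, and 6 with the control guide, at 42.7 CPM per kb. TNIP1 did the reverse, ranking 6 with the EFNB2 guide, at 49.9 CPM per kb, and 4 with the control guide, at 65.5 CPM per kb. PLEK, at 10.7 CPM per kb with the EFNB2 guide and 1.23 with the control guide, lay at percentile 73.7 of all tested genes with the EFNB2 guide and 33.7 with the control guide, the largest move of any member. CD69 was at 0.474 CPM per kb with the EFNB2 guide and at 0.115 with the control guide. Within a guide the libraries varied by a median of 5.05% of the mean with the EFNB2 guide and 4.86% with the control guide.

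**Figure D5:**
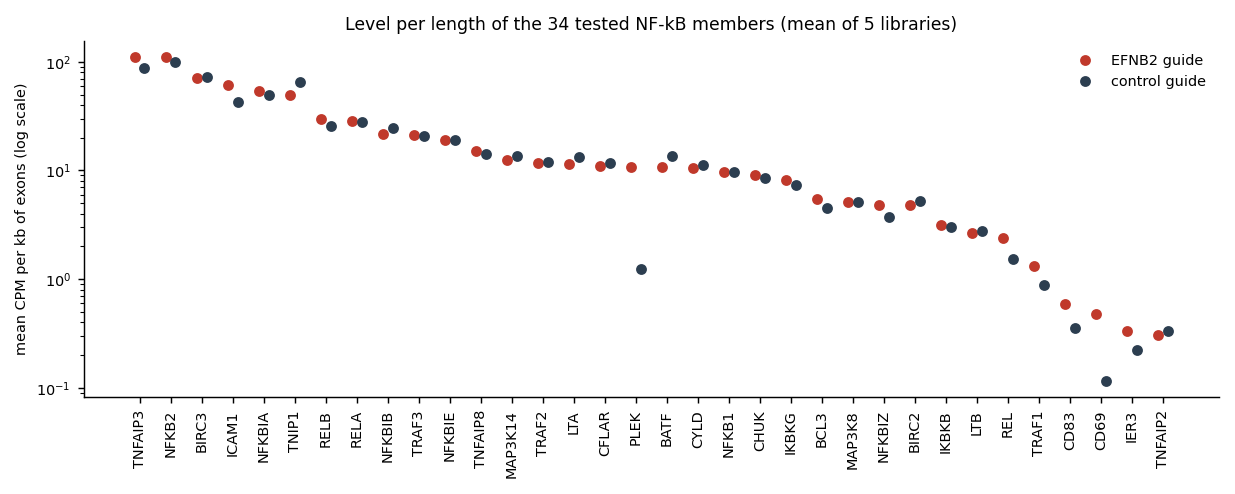
Mean CPM per kb of exons (log axis) of the 34 tested members, 5 libraries a guide, ordered by level with the EFNB2 guide (red) beside the control guide (dark). The 2 guides are close for most members, and PLEK (10.7 with the EFNB2 guide, 1.23 with the control guide) and CD69 (0.474 with the EFNB2 guide, 0.115 with the control guide) show the widest gaps.

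Genes around the members were taken from 3 further lists. Of the receptors that signal to NF-kB, 12 of 27 were high enough to test, of which 1 was higher, 2 were lower and 9 did not pass. FAS, a death receptor, averaged 38.0 ± 1.90 CPM with the EFNB2 guide, against a control guide average of 28.0 ± 2.15 CPM (SD, n = 5 each), with a log2 fold change of 0.44 (SE 0.05). TNFRSF17, the BCMA receptor that plasma cells use for survival, averaged 236 ± 2.73 CPM with the EFNB2 guide, against a control guide average of 306 ± 15.9 CPM (SD, n = 5 each), with a log2 fold change of -0.38 (SE 0.03). In both genes the groups did not overlap. TNFRSF1A, the main TNF receptor, was the other lower one, at 0.361 CPM with the EFNB2 guide, against 0.876 CPM with the control guide, and is named here because the count is small. Of the tested receptors 25.0% passed, beside 45.4% of all genes. Of 41 adaptors and kinases, 40 were tested (IRAK4 was not analysed here), with 12 higher and 9 lower, or 52.5%, beside the same 45.4%. The larger rises were TNIP3 (log2 fold change 0.85, SE 0.11), a relative of TNIP1, IKBKE (0.55, SE 0.05), an IKK-related kinase, and NLRC5 (0.44, SE 0.05), a regulator of MHC class I genes. The larger falls were IRAK2 (-0.74, SE 0.07), a kinase of Toll-like receptor signalling, RIPK2 (-0.35, SE 0.06), the kinase of NOD receptors, and COMMD1 (-0.20, SE 0.07, adjusted p = 0.0276), whose call was lost without EFNB2 guide library B, C, D or E or control guide library B, C or E (adjusted p up to 0.0826). Receptors called higher numbered 2 or 3 when EFNB2 guide library A or C or control guide library A, B or D was left out.

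Of 34 other target genes, 24 were tested, and 8 were higher while 9 were lower, or 70.8%, beside 45.4% of all genes (median log2 fold change -0.03). At a mean log2 CPM of 1 or more, 63.2% of the list passed, beside 54.4% of all genes. CCL4, a chemokine with near-identical gene copies that may share its reads, had 2.97, 2.45, 2.97, 2.62 and 2.84 CPM with the EFNB2 guide, against 10.9, 8.37, 9.56, 8.72 and 8.82 CPM with the control guide. The groups were far apart (log2 fold change -1.74, SE 0.09, adjusted p = 3.6e-10). NUAK2, a kinase (log2 fold change -1.28, SE 0.08), and LITAF, a membrane protein of the endosome (-0.75, SE 0.03), were lower too. The chemokine CCL3, named after its values were seen, averaged 1290 ± 59.9 CPM with the EFNB2 guide, against a control guide average of 2070 ± 92.2 CPM (SD, n = 5 each). Its groups did not overlap (log2 fold change -0.68, SE 0.04, adjusted p = 7.43e-10). BCL2L1, the gene of the survival protein BCL-xL, was higher (0.19, SE 0.03), as were FAS and WNT10A, a secreted Wnt ligand (0.11, SE 0.03). These genes were named from those with a mean log2 CPM of 1 or more. Below that level, and named after their values were seen, the chemokine CCL22 (1.12, SE 0.24), the chemokine receptor CCR7 (1.05, SE 0.26), the cytokine IL15 (0.57, SE 0.13) and TNFSF10, the gene of the death ligand TRAIL (0.38, SE 0.13), were higher too, while DRAM1, an autophagy gene (-0.49, SE 0.13), was lower. The remaining called genes of this list, also named after their values were seen, were 1 higher and 4 lower. CD74 was higher (0.08, SE 0.02). SQSTM1 (-0.34, SE 0.08), RNF19B (-0.31, SE 0.04), SOD2 (-0.23, SE 0.04) and CCL5 (-0.18, SE 0.06) were lower, with overlapping groups in SQSTM1 and CCL5. Targets of NF-kB stood in both directions with the EFNB2 guide, PLEK, CD69, CD83 and ICAM1 among those that were higher and CCL4, NUAK2, LITAF, LTA and BATF among those that were lower.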

How the data were processed

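RNA-seq covered 10 U266 libraries, 5 per guide, with groups taken from the genotype label. Libraries were strand-specific and poly(A)-selected, per the labels' protocols. STAR 2.27a, Partek, DESeq2 and GRCh38 are named in the submitters' processing notes with no role for each. The sources used here do not give the annotation or the strand setting. Raw counts per gene, as the authors deposited them, were used for all main results. The authors also deposited a normalized signal, the count plus 0.0001 multiplied by 1 constant per library, which served as an alternative. The 4 rows that name no gene held 0.000303% to 0.000401% of the counts per library and were left out.

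Of 60573 genes, 17833 passed filterByExpr and were tested with edgeR 4.0.16 (R 4.3.3): TMM scaling, quasi-likelihood test, guide as the only term, Benjamini-Hochberg over all genes tested, threshold 0.05. The SE is the absolute log2 fold change over the square root of F. The common biological coefficient of variation was 0.0489. Log2 CPM used a prior count of 2. Exon lengths came from GENCODE, and gene positions and start windows from RefSeq (GRCh38.p14). The scripts were tested on simulated data. Intervals and floors (3 counts) cover counting error only.

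Members and lists were chosen with earlier results of these data known. Named with all libraries were up to 3 members per role past the threshold by absolute log2 fold change, any Rel subunit past it, and, chosen after their values were seen, LTA and BIRC3. From the other lists, up to 3 rises and 3 falls above a mean log2 CPM of 1 were named. CCL3, some genes below that level and the remaining called genes of the other targets were added after their values were seen. Alternatives were DESeq2 1.42.0, limma-voom (limma 3.58.1), RLE scaling, library totals, no filter, at least 1 CPM in 5 libraries, the letter as a block, the deposited signal as log2(value + 1) with limma-trend, leaving out each library, leaving out both A libraries and counting induced regulators as targets.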

Additional observations from a re-analysis of the deposited data

Results flagged for a closer look

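In 11 of 74 groups of 5 libraries, the highest or lowest library stood apart from the other 4 (gap over range above Dixon's critical value of 0.71). The groups are those of each member and of EFNB2 with each guide. CD40 with the control guide was 0 in every library and could not be flagged. Chance alone gives such a result in about 1 of 20 groups, and genes of a library are not independent. Of the 11 results, 10 were in an A library. With the EFNB2 guide, library A had 164 CPM of RELA (other libraries 151 to 154), 98.3 CPM of RELB (86.4 to 89.1), 598 CPM of TNFAIP3 (549 to 557), 318 CPM of TNIP1 (278 to 286), 585 CPM of BIRC3 (513 to 523), 23.6 CPM of LTA (18.8 to 19.8) and 30.2 CPM of PLEK (35.7 to 37.0). With the control guide, library A had 334 CPM of TNIP1 (390 to 391), 489 CPM of BIRC3 (551 to 569) and 238 CPM of CFLAR (264 to 274). In TNIP1 and BIRC3 both A libraries stood apart, each towards the other guide's libraries or past them. The remaining result was IER3 in library C with the EFNB2 guide, at 0.167 CPM (other libraries 0.459 to 0.573), a gene with few counts.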

How the results depend on the processing

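Across the alternatives the 14 higher members lay between 13 and 16 in number and the 7 lower ones between 4 and 9. Over fits that left out 1 library, lower members numbered 4 to 8, lower components 3 to 5, lower targets 1 to 3 and receptors called higher 1 to 3, the highest without control guide library A. Receptors called higher numbered 2 with DESeq2, 3 with no filter and 3 without both A libraries, and receptors called lower 1 with a filter of 1 CPM. The other targets called higher numbered 5 on the deposited signal. With induced regulators counted as targets, 2 components and 12 targets were higher and the components' median was 0.00. That median was 0.00 without both A libraries too, and the targets' median was 0.51 with DESeq2 and with no filter, where TNF and CD40 entered, and -0.01 on the deposited signal. 

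Members near 0 changed sign without passing the threshold. NFKB1 was at -0.02 on the deposited signal, at 0.00 without both A libraries and at -0.01 to 0.02 in fits without 1 library. RELA was at 0.00 on the deposited signal and without both A libraries. NFKBIE was at -0.02 on the deposited signal, -0.04 without both A libraries and -0.02 to 0.04 without 1 library. TRAF3 was at -0.01 without both A libraries. MAP3K8 was at 0.00 with limma-voom, 0.02 with library totals, 0.01 with the 1 CPM filter and -0.03 to 0.03 without 1 library. The cause was not tested.

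Same-lettered libraries of the guides did not deviate together (r -0.237 to -0.00305), so the letters were not taken as pairs. With the letter as a replicate block, 20 members passed, 19 of them shared, CHUK and CYLD were lost (adjusted p = 0.0509 each) and CFLAR was gained (adjusted p = 0.0487), and 3425 genes were higher and 3338 lower over all genes. Of all calls, 54.2% were higher with library totals and 40.2% on the deposited signal, and the median of all genes moved between -0.029 and 0.068. EFNB2 and IER3 gave no value on the deposited signal or with the 1 CPM filter. Depth limits CD40, TNF and IER3.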
